A study of Populus deltoides x Populus x canadensis with 6 samples.

Results

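The middle of the monolignol pathway was followed through 9 genes in poplar stems: PtrC4H1, PtrC4H2, Ptr4CL3, Ptr4CL5, PtrHCT1, PtrHCT6, PtrC3H3, PtrCSE1 and PtrCSE2. They are 9 of the 35792 rows of the expression table and were taken by identifier, and all 9 are among the 27382 genes that passed the filter on low counts. The names follow the poplar gene nomenclature supplied with the identifiers. The deposited table holds identifiers without gene names, so these names were not checked against it. Genotypes of the hybrid poplar Nanlin 895 were compared with 3 libraries each: a line labelled pdbri1-1;2;3;6, called the mutant here, and the wild type (WT). BRI1 is the cell surface receptor kinase for brassinosteroids, and the label names 4 members of its poplar family. All plants were 45 days old and shared a greenhouse regime of 16 h of light and 8 h of dark. Per the labels, each library was made from the basal 2 cm of leafless stem of 30 pooled plants, so wood, cambium and bark were measured together. The labels do not say how many independent mutant lines were used, and the BRI1 transcripts were not analysed here.

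Monolignols are the alcohols that are polymerised into lignin in the walls of vessels and fibres. C4H (cinnamate 4-hydroxylase) is a cytochrome P450 that makes p-coumarate, and 4CL (4-coumarate:CoA ligase) turns it into a CoA ester. HCT moves the p-coumaroyl group onto shikimate, C3H is the P450 that hydroxylates this shikimate ester to the caffeoyl form, and CSE (caffeoyl shikimate esterase) releases caffeate from it. In developing wood these genes are usually active together. The identifiers in the order above are Potri.013G157900.v4.1, Potri.019G130700.v4.1, Potri.001G036900.v4.1, Potri.003G188500.v4.1, Potri.003G183900.v4.1, Potri.001G042900.v4.1, Potri.006G033300.v4.1, Potri.003G059200.v4.1 and Potri.001G175000.v4.1. The chromosome numbers in them are 13, 19, 1, 3, 3, 1, 6, 3 and 1.

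Libraries held 17752822 to 20756647 counts in the mutant and 17954948 to 21096052 in WT. Levels of 1 gene are compared between genotypes as CPM, counts relative to the library total scaled by TMM factors, which correct for differences in library composition. Levels of different genes are compared as FPKM, which is also per gene length. Of all 27382 genes tested by edgeR's quasi-likelihood test, 64.1% passed a Benjamini-Hochberg adjusted p under 0.05 and were called, so being called is common in this comparison. With TMM factors the median log2 fold change (mutant over WT) of all tested genes was 0.01, and with library totals only it was 0.13. Small changes therefore depend on the scaling.

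The pathway genes did not move as a block. PtrC3H3 and Ptr4CL3 fell most, PtrHCT6 rose, PtrC4H1 rose slightly, and Ptr4CL5, PtrHCT1 and PtrCSE1 fell slightly. PtrC4H2 and PtrCSE2 did not pass the test. Thus 2 members were called higher and 5 lower, or 77.8% of the 9, beside 33.1% of all tested genes called higher and 31.0% called lower. Under scaling by library totals only, 2 members were called higher and 3 lower, or 55.6% of the 9, beside 42.8% of all tested genes called higher and 21.2% called lower (64.0% in all). The members' share of calls thus lies above that of all genes with one scaling and below it with the other. With TMM factors, among the 19382 tested genes with a mean level at or above that of PtrCSE2, the lowest member, 66.5% were called, 29.5% higher and 36.9% lower; library totals only turned that split to 41.5% higher and 24.3% lower. The TMM-scaled CPM of the genotypes did not overlap for 8 of the 9 members and for 67.1% of all tested genes. Groups of 3 against 3 libraries can be apart without a call, as for PtrC4H2. In FPKM, which rests on library totals, the genotypes overlapped for PtrC4H2 and PtrCSE1 as well as PtrCSE2. The share of all tested genes apart in FPKM was not computed here. No member changed 2-fold. A change of at least that size was called for 18.7% of all tested genes and for 10.4% of those at or above the level of PtrCSE2. The median log2 fold change of the members was -0.18, and the median of its absolute size was 0.22, against 0.32 over all tested genes and 0.25 over those at or above the level of PtrCSE2.

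**Figure D1:**
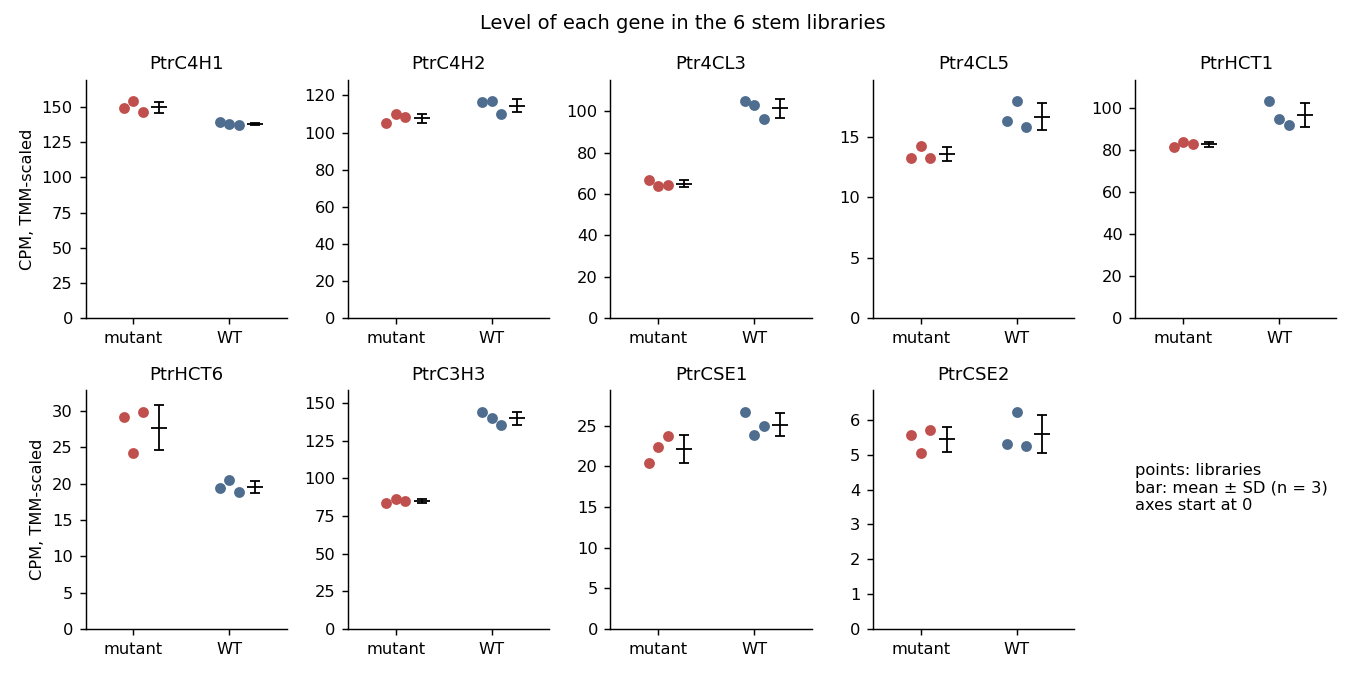
TMM-scaled CPM of each of the 9 genes (vertical axes, each from 0) in the 3 mutant and 3 WT libraries, with points for libraries and bars for mean ± SD. The mutant libraries lie below the WT libraries in 6 panels, above them in those of PtrC4H1 and PtrHCT6, and overlap with them for PtrCSE2.

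At the first of the steps followed here, PtrC4H1 had 149, 154 and 146 CPM in mutant stems, against 139, 138 and 137 CPM in WT stems. The mutant libraries were all higher, by a small margin. The mean was 149.9 ± 3.82 CPM in the mutant and 138 ± 0.80 CPM in WT (SD, n = 3 each), a log2 fold change of 0.12 with a standard error of 0.04 (adjusted p = 0.00566, edgeR). Its copy PtrC4H2 had 105, 109.8 and 108 CPM in mutant stems, against 116, 117 and 110.2 CPM in WT stems. The WT libraries were higher, the nearest by less than the range within either genotype, and the gene did not pass the test (log2 fold change -0.09, 95% interval -0.17 to -0.01, adjusted p = 0.054, edgeR). With library totals only, its value was 0.04 (adjusted p = 0.449, edgeR), so its direction depends on the scaling.

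For the ligase, Ptr4CL3 had 67.0, 64.0 and 64.4 CPM in mutant stems, against 105, 103 and 96.4 CPM in WT stems. Every mutant library lay far below every WT library. Ptr4CL3 fell to 0.643 of the WT level (95% interval 0.604 to 0.684), a log2 fold change of -0.64 with a standard error of 0.04 (adjusted p = 1.33e-17, edgeR). Its copy Ptr4CL5, the weaker of the pair in both genotypes, had 13.2, 14.2 and 13.2 CPM in mutant stems, against 16.2, 17.9 and 15.8 CPM in WT stems. The groups did not overlap, and Ptr4CL5 fell by 0.30 on the log2 scale (adjusted p = 0.00209, edgeR). With library totals only, the value for Ptr4CL5 was -0.18 and it was no longer called (adjusted p = 0.0682, edgeR).

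The copies of HCT went in opposite directions. PtrHCT1, the more abundant one, had 81.5, 83.9 and 82.6 CPM in mutant stems, against 103, 94.9 and 92.1 CPM in WT stems. All mutant libraries were below all WT libraries, and PtrHCT1 fell by 0.22 on the log2 scale (standard error 0.04, adjusted p = 1.77e-05, edgeR). With library totals only it fell by 0.10 and stood close to the threshold (adjusted p = 0.0415, edgeR). PtrHCT6 had 29.1, 24.2 and 29.8 CPM in mutant stems, against 19.4, 20.5 and 18.8 CPM in WT stems. Mutant replicate 2 was the lowest of the mutant libraries and still above every WT library. PtrHCT6 rose to 1.42 times the WT level (95% interval 1.28 to 1.58), a log2 fold change of 0.51 with a standard error of 0.07 (adjusted p = 7.52e-08, edgeR), the largest rise among the members.

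PtrC3H3, the single C3H gene among the members, fell most. It had 83.4, 86.0 and 85.2 CPM in mutant stems, against 144, 140.1 and 135 CPM in WT stems. The mutant libraries lay within a narrow range, well below WT. PtrC3H3 fell to 0.607 of the WT level (95% interval 0.574 to 0.642), a log2 fold change of -0.72 with a standard error of 0.04 (adjusted p = 3.35e-21, edgeR). In size, 73.7% of all tested genes changed no more than PtrC3H3, 70.8% no more than Ptr4CL3 and 64.7% no more than PtrHCT6.

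The esterase genes moved little. PtrCSE1 had 20.4, 22.4 and 23.8 CPM in mutant stems, against 26.7, 23.8 and 24.9 CPM in WT stems. The highest mutant library nearly reached the lowest WT library. PtrCSE1 fell by 0.18 on the log2 scale (standard error 0.07, adjusted p = 0.0242, edgeR), but with library totals only the value was -0.06 (adjusted p = 0.49, edgeR), without mutant replicate 1 its adjusted p was 0.166 and without WT replicate 1 it was 0.122 (edgeR). PtrCSE2 had 121, 93 and 109 counts in mutant libraries and 91, 122 and 106 counts in WT libraries. These ranges overlap almost fully, and the log2 fold change was -0.04 with a 95% interval of -0.32 to 0.24 (adjusted p = 0.821, edgeR). The data are compatible with any change inside that interval.

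**Figure D2:**
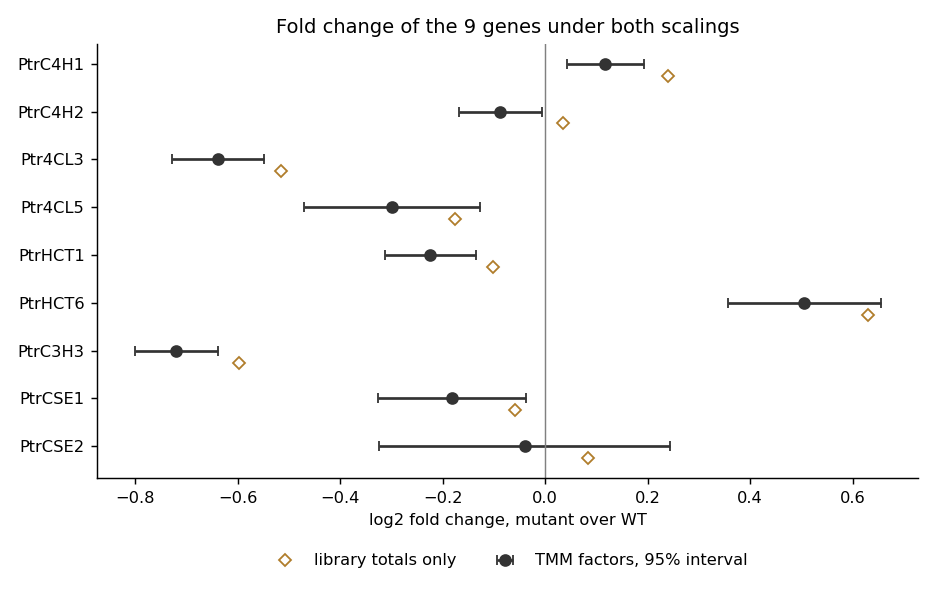
Log2 fold change, mutant over WT, of the 9 genes: filled points with 95% intervals use TMM factors, open diamonds library totals only. Every diamond lies to the right of its point; PtrC3H3, Ptr4CL3 and PtrHCT6 stay far from 0 under both, while PtrC4H2 and PtrCSE2 change side.

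When the test asked for a change beyond 1.2-fold, PtrC3H3, Ptr4CL3 and PtrHCT6 were called (adjusted p = 3.01e-15, 2.78e-11 and 0.000711, edgeR's glmTreat) and the other 6 members were not. That stricter test called 39.4% of all tested genes. The plot of all tested genes shows where the members lie: 8.33% of tested genes had a log2 fold change at or below that of PtrC3H3, and 77.3% at or below that of PtrHCT6.

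**Figure D3:**
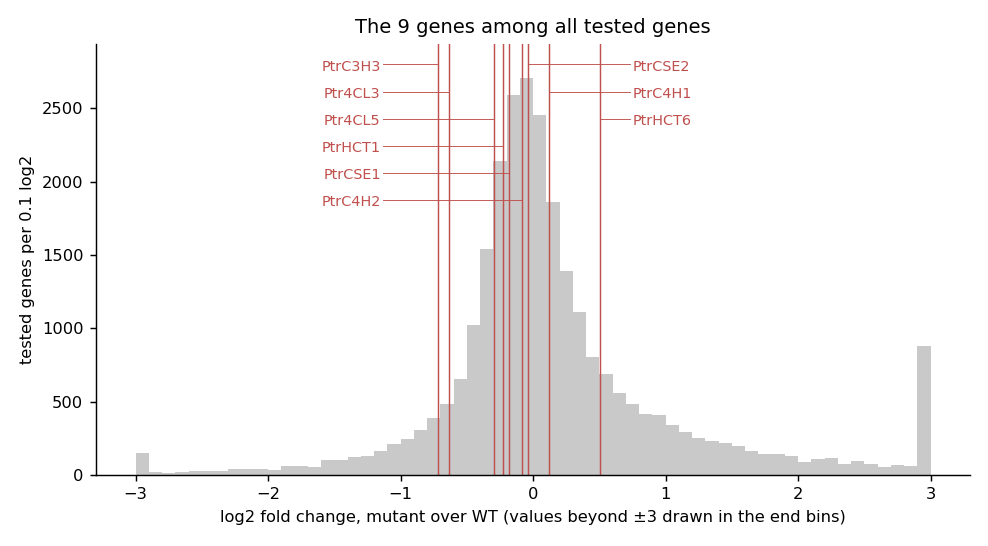
Number of tested genes per 0.1 log2 of fold change, mutant over WT (grey bars), with the 9 genes as red lines. They lie between -0.72 and 0.51. At or below PtrC3H3 lie 8.33% of tested genes, and at or below Ptr4CL3 9.66%.

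Summing the copies of a step removes any division of shared reads between those copies. It does not remove an effect of reads that were dropped, counted more than once or shared with genes outside the 9, and the counting rule is unknown. With the copies of a step summed and tested within the whole table, the 4CL total had 80.2, 78.1 and 77.6 CPM in mutant stems, against 121, 121 and 112 CPM in WT stems, a log2 fold change of -0.59 with a standard error of 0.04 (adjusted p = 5.2e-17, edgeR). The C4H total had 254, 264 and 255 CPM in mutant stems, against 255, 255 and 248 CPM in WT stems. These overlap, and the log2 fold change was 0.03 with a 95% interval of -0.04 to 0.10 (adjusted p = 0.483, edgeR); with library totals only it was 0.15 and called (adjusted p = 9.73e-05, edgeR). For HCT, whose copies moved apart, the total had 111, 108 and 112 CPM in mutant stems, against 122, 115 and 111 CPM in WT stems, and did not pass the test (log2 fold change -0.07, 95% interval -0.16 to 0.01, adjusted p = 0.117, edgeR). With library totals only the HCT value was 0.05 (adjusted p = 0.288, edgeR), and without WT replicate 3 it was -0.11 and called (adjusted p = 0.0423, edgeR). The CSE total was 27.6 ± 1.77 CPM in the mutant and 30.7 ± 1.08 CPM in WT (SD, n = 3 each; log2 fold change -0.15, adjusted p = 0.0305, edgeR). It was not called with library totals only (-0.03, adjusted p = 0.684, edgeR), nor without mutant replicate 1, mutant replicate 2 or WT replicate 1 (adjusted p = 0.161, 0.0508 and 0.112, edgeR). Including PtrC3H3, 3 of 5 steps were called lower and 0 higher. In that fit 64.1% of all genes were called in either direction. The fit of single genes called 31.0% lower and 33.1% higher. With library totals only, 4CL and PtrC3H3 were called lower, C4H higher, and HCT and CSE not. That scaling called 21.2% of all tested genes lower and 42.8% higher.

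The make-up of the pathway in each library is free of any scaling between libraries. In summed FPKM of the 9 genes, C3H took 9.53% ± 0.07 in the mutant and 13.8% ± 0.05 in WT, and 4CL took 14.9% ± 0.35 in the mutant and 19.4% ± 0.38 in WT (SD, n = 3 each). C4H took 47.6% ± 0.76 in the mutant and 40.8% ± 0.56 in WT, and HCT 19.98% ± 0.55 in the mutant and 18.2% ± 0.41 in WT. The libraries of the genotypes did not overlap for these 4 steps. CSE took 8.04% ± 0.47 in the mutant and 7.84% ± 0.18 in WT, and there the libraries overlapped. Such percentages have no counterpart over all genes, but in TMM-scaled CPM 67.1% of all tested genes were apart. The percentages add up to the whole, so a fall of some steps raises the others. In TMM-scaled CPM the C4H and HCT totals overlapped and were not called (log2 fold change 0.03 and -0.07). Within libraries, the level of PtrC3H3 was 0.328, 0.328 and 0.341 times that of PtrC4H1 in mutant stems, against 0.606, 0.594 and 0.578 times in WT stems. PtrHCT6 stood at 0.635, 0.511 and 0.637 times the level of PtrC3H3 in mutant stems, against 0.245, 0.266 and 0.252 times in WT stems. These pairs were picked after their values were seen and are given as a description. Unlike this make-up, a share of all counts rests on library totals. All 9 genes together took 0.0583% ± 0.0003 of counts in the mutant and 0.0630% ± 0.0019 in WT (SD, n = 3 each), with every mutant library below every WT library. The two-sided exact permutation p was 0.1, the smallest that 3 against 3 libraries allow. The difference, mutant less WT, was -0.0047 percentage points, and -0.0098 when library totals were scaled by TMM factors.

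**Figure D4:**
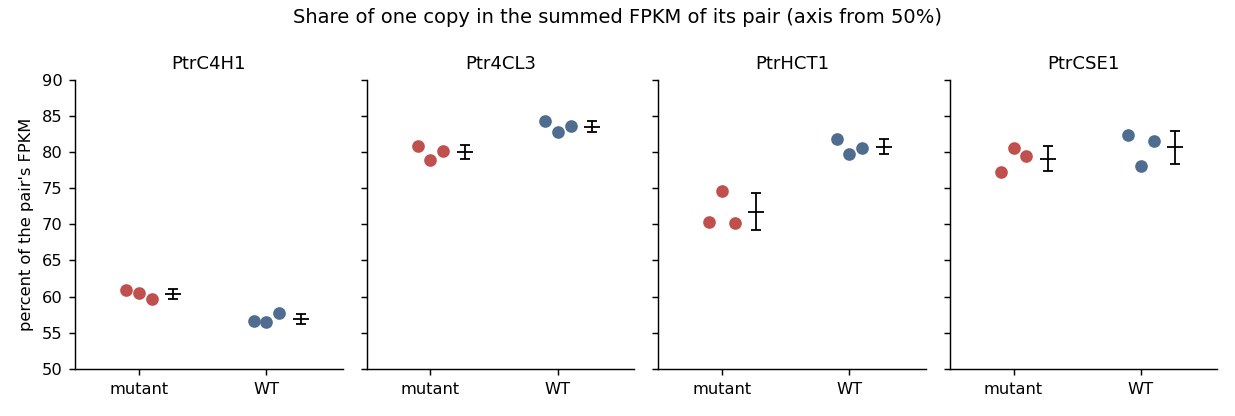
Percent of the summed FPKM of a pair that came from PtrC4H1, Ptr4CL3, PtrHCT1 or PtrCSE1 (vertical axis, from 50%) in each mutant and WT library, with mean ± SD. The groups are apart for the first 3 and overlap for PtrCSE1.

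Within pairs, the balance of the copies differed most for HCT. PtrHCT1 held 70.4%, 74.7% and 70.1% of the HCT FPKM in mutant stems, against 81.8%, 79.7% and 80.6% in WT stems. Ptr4CL3 held 80.8%, 79.0% and 80.2% of the 4CL FPKM in mutant stems, against 84.3%, 82.7% and 83.5% in WT stems. PtrC4H1 held 60.9%, 60.6% and 59.7% of the C4H FPKM in mutant stems, against 56.6%, 56.4% and 57.7% in WT stems. For each of these 3 pairs the genotypes were apart, and the two-sided exact permutation p was 0.1, the smallest that 3 against 3 libraries allow, so this design cannot reach 0.05 (0.133 after Benjamini-Hochberg adjustment over the 4 pairs). PtrCSE1 held 79.1% ± 1.68 of the CSE FPKM in mutant stems and 80.7% ± 2.29 in WT stems (SD, n = 3 each; exact permutation p = 0.4). The fitted log2 fold changes of the copies differed by -0.73 for PtrHCT1 less PtrHCT6 (95% interval -0.90 to -0.56), by -0.34 for Ptr4CL3 less Ptr4CL5 (-0.53 to -0.15), by 0.20 for PtrC4H1 less PtrC4H2 (0.09 to 0.32) and by -0.14 for PtrCSE1 less PtrCSE2 (-0.46 to 0.18). These intervals take the errors of the copies as independent and were added after the data were seen. Whether the copies share reads was not analysed here.

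The order of levels per length changed in its middle part. In mutant stems PtrC4H1 led with 67.7 ± 1.66 FPKM, followed by PtrC4H2 with 44.4 ± 0.88, PtrHCT1 with 33.7 ± 0.41, Ptr4CL3 with 28.0 ± 0.80 and PtrC3H3 with 22.5 ± 0.28 FPKM. Below them came PtrCSE1 with 15.002 ± 1.124, PtrHCT6 with 13.3 ± 1.51, Ptr4CL5 with 7.01 ± 0.27 and PtrCSE2 with 3.95 ± 0.26 FPKM (SD, n = 3 for each gene). Only PtrCSE1 and PtrHCT6 overlapped among neighbours in that order. In WT stems PtrC4H1 led with 57.3 ± 0.31 FPKM, followed by PtrC4H2 with 43.4 ± 1.41, Ptr4CL3 with 40.1 ± 1.76, PtrHCT1 with 36.2 ± 2.12 and PtrC3H3 with 34.0 ± 1.01 FPKM. Below them came PtrCSE1 with 15.6 ± 0.87, PtrHCT6 with 8.64 ± 0.39, Ptr4CL5 with 7.91 ± 0.54 and PtrCSE2 with 3.73 ± 0.37 FPKM. There the neighbours Ptr4CL3 and PtrHCT1, PtrHCT1 and PtrC3H3, and PtrHCT6 and Ptr4CL5 overlapped. Ptr4CL3 stood below PtrHCT1 in the mutant, while these genes overlapped in WT. PtrHCT6 overlapped with PtrCSE1 in the mutant, and with Ptr4CL5 in WT. By mean FPKM, PtrC3H3 was at or above 77.8% of tested genes in the mutant and 87.4% in WT, and PtrHCT6 at or above 62.9% in the mutant and 53.2% in WT.

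**Figure D5:**
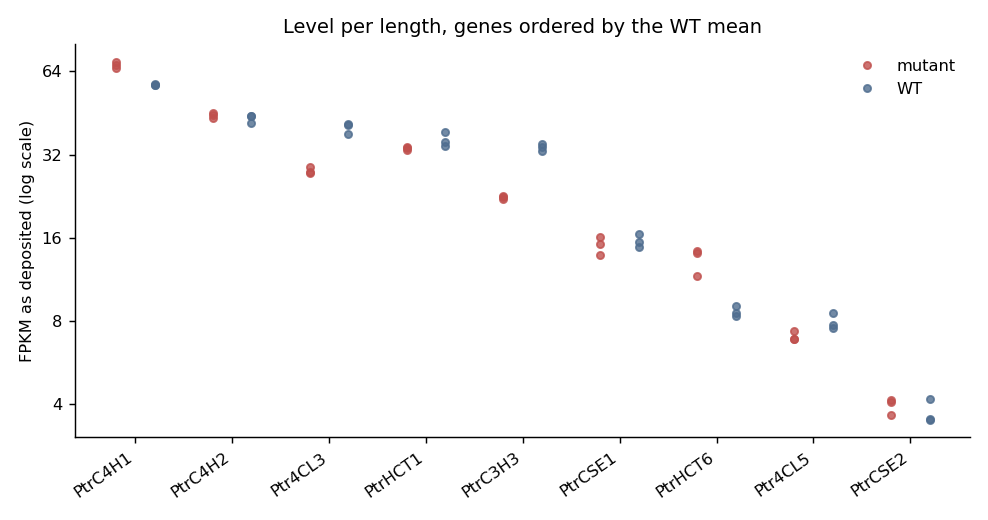
Deposited FPKM of each gene (log axis) in the 3 mutant and 3 WT libraries, with genes ordered by the WT mean. The 5 genes on the left lie close together in WT, from 34.0 to 57.3 FPKM on average, and spread from 22.5 to 67.7 FPKM in the mutant.

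Replicates of these genes were close to each other. The coefficient of variation of the CPM ran from 1.504% (PtrHCT1) to 11.1% (PtrHCT6) in the mutant and from 0.58% (PtrC4H1) to 9.80% (PtrCSE2) in WT. Counting alone would give 1.84% to 9.64% in the mutant and 1.94% to 9.70% in WT. PtrHCT6 in the mutant, where counting gives 4.27%, stood furthest above that noise. Several values lay below it, such as PtrC3H3 (1.57%, counting 2.44%) and PtrHCT1 (1.504%, counting 2.48%) in the mutant. In WT, PtrC4H1 did so as well (0.58%, counting 1.95%). With n = 3 such small spreads do not show a precision better than counting noise.

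Other genes of the pathway and a marker list for wood-forming xylem were set beside these genes. Both lists are of identifiers written down from the general poplar nomenclature, since the table annotates none of them, and no gene on them is named. Of 12 identifiers for other monolignol steps (PAL, CCoAOMT, CCR, CAld5H and CAD), 1 was called higher and 8 lower, and 3 were not called. That is 75% called, beside 64.1% of all tested genes (33.1% higher and 31.0% lower). The median log2 fold change of the 12 was -0.36, with a range from -0.72 to 0.12, and 0 of them changed 2-fold. With library totals only, 2 were called higher and 7 lower, with a median of -0.24. All tested genes then had 42.8% called higher and 21.2% lower. The summed level of the 12 was 2116 ± 100.6 CPM in the mutant and 2446 ± 21.9 CPM in WT (SD, n = 3 each). Of this, 1 PAL identifier alone held 1062 CPM in the mutant and 1074 CPM in WT. It was not called (adjusted p = 0.895, edgeR). All 5 identifiers for the secondary wall cellulose synthases were called lower, each at least 2-fold (median log2 fold change -2.08, range -2.28 to -1.12). With TMM factors, 1422 of all 27382 tested genes were called lower at least 2-fold. At or above the level of PtrCSE2 it was 676 of 19382. With library totals only, 4 of the 5 cellulose synthase identifiers reached 2-fold. Their summed level was 44.7 to 52.7 CPM in mutant stems and 180.5 to 200.1 CPM in WT stems, and none was at 0. The part of this fall in the values of the monolignol genes was not tested, and in whole stems fewer cells of a type and less RNA per cell cannot be told apart.

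By Euclidean distance over the 6 libraries, the genes whose centred log2 CPM profiles were closest to the median profile of the members, out of 19373 candidates, were Potri.003G008900.v4.1, Potri.010G126200.v4.1 and Potri.001G055400.v4.1. Their distances were 0.026, 0.031 and 0.032, and their log2 fold changes -0.17, -0.16 and -0.16 (adjusted p = 0.0781, 0.000618 and 0.021, edgeR). The nearest gene was thus not called. Since the members moved in both directions, their median profile describes no course that all of them shared. That median profile stood at -0.25, -0.16 and -0.08 in mutant replicates 1, 2 and 3, against -0.06 to 0.03 in WT replicates, which is closer to WT than the profiles of PtrC3H3, Ptr4CL3 and PtrHCT6.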

How the data were processed

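Stem RNA was sequenced in 6 pooled libraries, 3 per genotype. The deposited count columns hold raw whole-number counts per gene, per the file headers, and the deposited FPKM columns hold FPKM scaled by the authors to gene length and library total. The aligner, counting tool, genome build and strand setting are unknown, since the sources used here do not name them, and 0 columns of per-sample values were left unused. Groups were taken from the genotype labels. The whole table of 35792 rows was fitted with edgeR 4.0.16 (R 4.3.3; filterByExpr at its defaults, a count of at least 10 and a total of at least 15, TMM factors, robust quasi-likelihood F test, no block), and p-values were adjusted over the 27382 genes tested. Standard errors come from the F statistic. The procedure was tested on simulated data. Few genes changed there, equally up and down, so the dependence of small changes on the scaling was not covered. The labels call the pools biological replicates, and p-values reflect only the variation from pool to pool. With 3 libraries per genotype the sequencing depth of 17752822 to 21096052 counts sets the precision of low genes. Chi-square per gene between replicates was 1.84 to 2.62 (counting noise gives about 1), so replicates differed by more than counting noise. Alternatives were other scalings, DESeq2 1.42.0, no filter, limma 3.58.1 on log2(FPKM + 1) or log2(FPKM + 0.1), a replicate block and leaving out each library. All 9 members are named by rule, besides the 3 nearest profiles. Part of the list of other pathway genes is not reported here. The members and lists were chosen with earlier results of these data known.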

Additional observations from a re-analysis of the deposited data

How the results depend on the processing

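PtrC3H3, Ptr4CL3 and PtrHCT6 kept their direction and their call in each of 14 alternatives, with log2 fold changes of -0.75 to -0.58, -0.68 to -0.50 and 0.45 to 0.63. PtrC4H1 kept its direction in all 14 and missed the threshold only against a fold of 1.2. The number of members called was 7 with the replicate block, 8 with DESeq2-type size factors, 6 with DESeq2, 5 with library totals only and 6 to 8 without 1 library. It was 4 with limma on log2(FPKM + 1), 4 on log2(FPKM + 0.1) and 3 when tested against a fold of 1.2, which is stricter by construction; FPKM rests on library totals, but the model is another one as well, and the cause was not tested. With library totals only, PtrC4H2 stood at 0.0356, PtrCSE2 at 0.0833, the HCT total at 0.0502, the C4H total at 0.15 (called) and the CSE total at -0.0312 (not called). With limma, PtrC4H2 stood at 0.0346 and PtrCSE2 at 0.0671 with a pseudocount of 1, and at 0.0354 and 0.0828 with 0.1. PtrCSE2 also changed sign without mutant replicate 2 (0.0057) and without WT replicate 2 (0.0429), in a range without 1 library of -0.0898 to 0.0429. PtrC4H2 was called in 5 alternatives, and Ptr4CL5, PtrHCT1 and PtrCSE1 missed the threshold in 4, 3 and 7, all with the direction kept. DESeq2 did not call the CSE total (-0.16). Without 1 library, the CSE total ranged from -0.21 to -0.11 and the HCT total from -0.11 to -0.0387. The copy balance kept its direction in 8 alternatives for each pair. For C4H, 4CL and HCT this says little. With the groups apart, leaving out 1 library or using counts in place of FPKM could not reverse the sign. The difference of fitted log2 fold changes between copies, added after the data were seen, excluded 0 for C4H (0.20), 4CL (-0.34) and HCT (-0.73), where the permutation test could not pass.

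No pairing by equal replicate numbers was seen: deviations of same-numbered libraries correlated at -0.02 to -0.0045, and for 0 of 6 libraries was the own number the best match. Taken over all tested genes, this check cannot exclude a pairing that touches few of them. The replicate block changed no call of a member or step. The other pathway list had 7 to 9 genes called and the cellulose synthase list 5 in all alternatives. With about 100 counts per library, PtrCSE2 is limited by depth.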
